A study of Homo sapiens with 8 samples.

Results

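Growth factor receptors of the tyrosine kinase class and RAS GTPases carry growth signals in lung adenocarcinoma, and 9 of their genes were followed here in A549, an established human lung adenocarcinoma cell line. The 9 genes were taken from a list of gene names, with no threshold on their values, but were chosen with earlier results of these data known. They were EGFR, ERBB2, ERBB3, MET, AXL, IGF1R and FGFR1 among the receptors, NRAS and HRAS among the GTPases. They are 9 of the 60624 genes counted, and all 9 were among the 18661 genes with enough reads to test. The experiment asked how cells respond to indisulam, a compound that causes degradation of the splicing factor RBM39, when SRPK1, a kinase of splicing factors, is inhibited with SPHINX31. The 4 groups were untreated A549 cells, cells with indisulam, cells with SPHINX31 and cells with both drugs (the combination), all of the same unmodified cell line grown in medium with fetal bovine serum. The study's methods give 0.5 µM indisulam, 5 µM SPHINX31 and 24 h, whereas the labels of all libraries give 2 µM indisulam and 18 h. Each group had 2 technical replicates, so that every p-value below measures only the spread between libraries of that kind and not the spread between independent treatments.

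A receptor tyrosine kinase spans the cell membrane, is paired by its ligand and phosphorylates itself and its partners, which draws adaptor proteins and the exchange factors SOS1 and SOS2 to the membrane. The exchange factors load RAS with GTP, and RAS then activates the RAF, MEK and ERK kinases and PI3 kinase until GTPase-activating proteins such as NF1 switch it off. In lung adenocarcinoma EGFR, ERBB2 and MET are known drivers, while AXL and ERBB3 are known for sustaining signalling when another receptor is blocked.

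The libraries held between 51727369 and 63186989 counts on genes, with 83% to 86% of recorded reads on genes. All 5 epithelial markers and all 5 genes known to be high in A549 exceeded 1 CPM (counts scaled to the size of the library) in every library, with a summed level of 7037 to 8291 CPM for the epithelial list. The alveolar type II markers SFTPC, SFTPB and NAPSA were below 1 CPM in every library, and 7 of 10 leukocyte, endothelial and fibroblast markers were too, the exceptions being CD14, PECAM1 and COL1A1 at no more than 9.76 CPM. RBM39 mRNA, whose protein is the target of indisulam, was 1.22 ± 0.0553 (SE) higher on the log2 scale with indisulam (edgeR adjusted p = 5.41e-09). SRPK1 mRNA with SPHINX31 differed from untreated cells by -0.04 on the log2 scale (edgeR adjusted p = 0.683). The difference was -0.33 with indisulam (edgeR adjusted p = 3.42e-04) and -0.23 with the combination (edgeR adjusted p = 0.00318).

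Per kilobase of the canonical transcript, MET, the receptor for hepatocyte growth factor, had the highest level of the 9 genes in untreated cells, at 76.9 ± 2.08 CPM per kb (SD, n = 2). ERBB3 followed at 31.4 ± 2.33 and ERBB2 at 29.2 ± 1.84 CPM per kb, and their ranges overlapped. FGFR1, on chromosome 8, at 24.1, HRAS at 23.7 and NRAS at 22.6 CPM per kb formed a group in which each gene overlapped the next. IGF1R at 10.9 and EGFR at 10.1 CPM per kb also overlapped, and AXL was lowest at 9.20 ± 0.150 CPM per kb, below both EGFR libraries. MET thus stood apart from ERBB3, and so did ERBB2 from FGFR1, NRAS from IGF1R and EGFR from AXL. Part of this order rests on the length used: with the length of all annotated exons of a gene, MET stayed highest at 72.6 CPM per kb, but NRAS came second at 22.6 and FGFR1 fell to 7.99 CPM per kb, and EGFR was lowest at 6.28 CPM per kb.

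**Figure D1:**
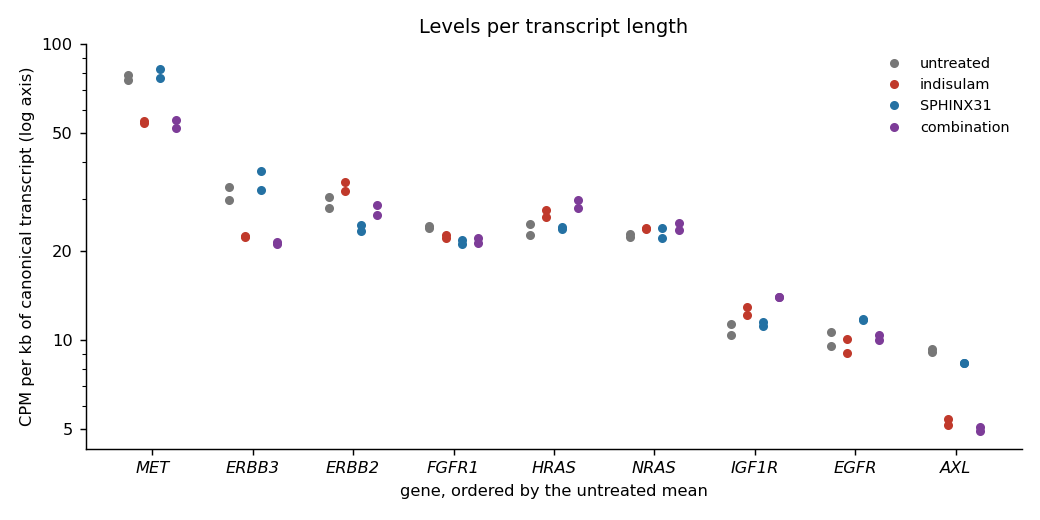
Level of each of the 9 genes in CPM per kb of canonical transcript (log axis), 1 point per library, with genes ordered by their mean in untreated cells and colours for the 4 groups. MET lies highest at 76.9 CPM per kb in untreated cells, and AXL at 9.20 CPM per kb drops to 5.29 CPM per kb with indisulam.

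The order of the ERBB pair differed between the groups. With indisulam, ERBB2 reached 33.0 ± 1.73 CPM per kb and ERBB3 22.4 ± 0.111 CPM per kb (SD, n = 2), and both ERBB2 libraries lay above both ERBB3 libraries. With SPHINX31 the order was the other way round, ERBB3 being at 34.7 ± 3.51 and ERBB2 at 23.9 ± 0.809 CPM per kb. The combination resembled indisulam in this order, with ERBB2 at 27.5 and ERBB3 at 21.3 CPM per kb.

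With indisulam AXL, MET and ERBB3 fell and IGF1R, ERBB2 and HRAS rose by smaller amounts, whereas EGFR, FGFR1 and NRAS did not pass the test. A gene was called changed when the quasi-likelihood test of edgeR gave it an adjusted p under 0.05 (Benjamini-Hochberg, over all 18661 genes). By that rule 6 of the 9 genes were called with indisulam, beside 43.7% of all genes tested, 3 of them higher (20.1% of all genes) and 3 lower (23.5%). With SPHINX31, 2 of the 9 were called, ERBB2 and FGFR1, both lower, beside 8.61% of all genes in either direction and 3.67% lower. With the combination 6 of the 9 were called against untreated cells, beside 50% of all genes, and IGF1R and HRAS were the 2 higher ones (23.8% of all genes) and ERBB3, MET, AXL and FGFR1 the 4 lower ones (26.3%). The median log2 fold change of the 9 genes was -0.07 with indisulam, 0.03 with SPHINX31 and -0.08 with the combination, beside medians of -0.00, -0.01 and 0.00 over all genes. The 3 comparisons share the untreated libraries.

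**Figure D2:**
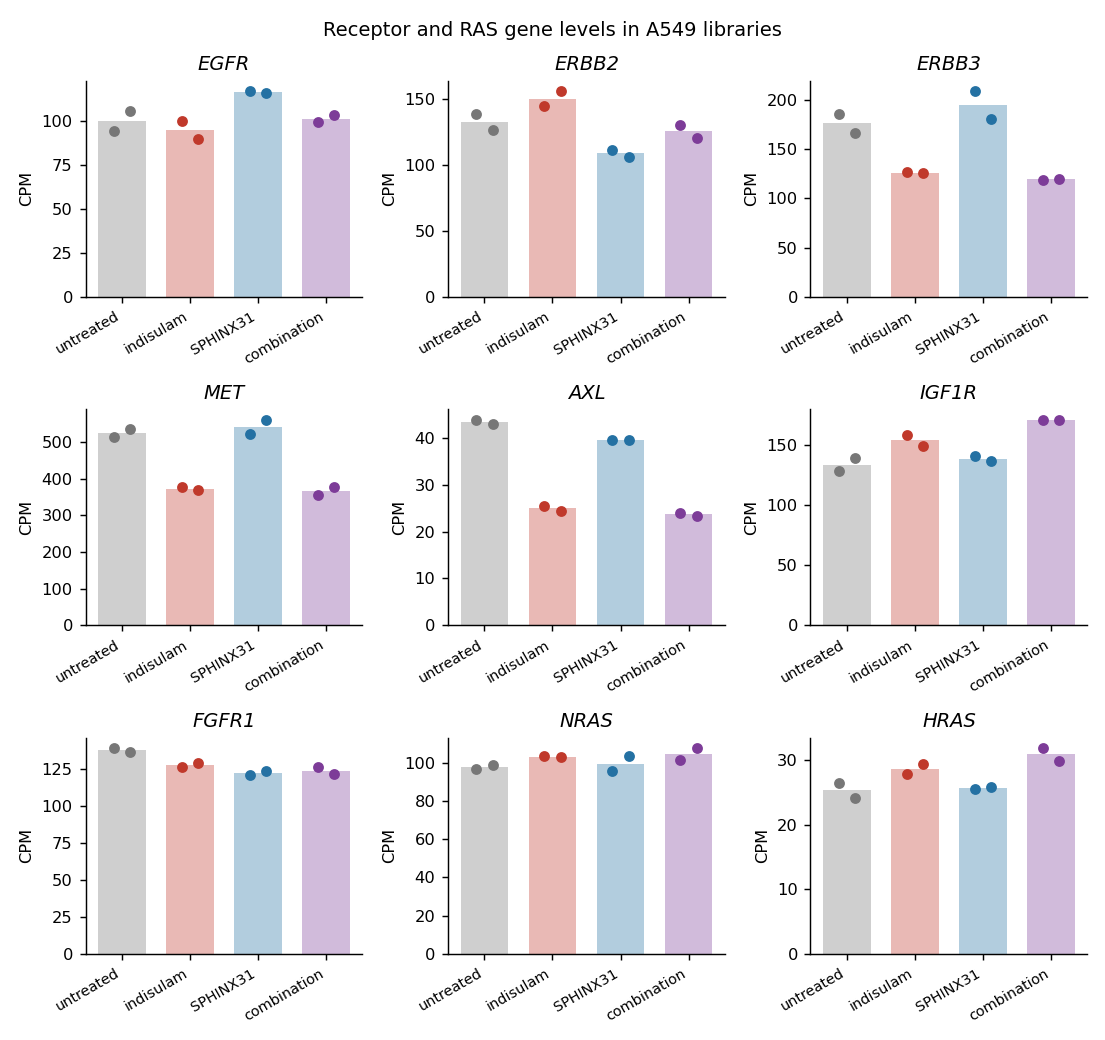
CPM of each of the 9 genes in the 4 groups, with 1 point per library and bars at the mean of the 2 libraries, on axes that start at 0. MET, AXL and ERBB3 are lower in all 4 libraries with indisulam, alone or combined, than in the 4 libraries without it.

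EGFR, the receptor for EGF and related ligands, lies at chr7:55019017-55211628 on the plus strand, with 28 exons in its canonical transcript. Its level was 94.5 and 106 CPM in the untreated libraries, 100 and 90.0 CPM with indisulam, 117 and 116 CPM with SPHINX31, and 99.4 and 103 CPM with the combination. The SPHINX31 libraries were the highest of the 8, and those with indisulam overlapped the untreated ones. The log2 fold change with SPHINX31 was 0.22 ± 0.0645 (SE), just short of a call (edgeR adjusted p = 0.0537). That value was called under 9 of 18 other settings, with log2 fold changes of 0.20 to 0.25 there, among them DESeq2 (adjusted p = 0.0349) and GC content offsets (edgeR adjusted p = 0.0279). With indisulam the log2 fold change was -0.07, with a 95% interval from -0.21 to 0.07.

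ERBB2, the receptor with no known ligand of its own and the preferred partner in ERBB pairs, lies at chr17:39687914-39730426 on the plus strand. Its level was 139 and 127 CPM in untreated cells, 145 and 156 CPM with indisulam, 112 and 106 CPM with SPHINX31, and 130 and 121 CPM with the combination. Indisulam libraries were thus the highest and SPHINX31 libraries the lowest, without overlap between those groups and the untreated one, while the combination overlapped untreated cells. ERBB2 rose by 13.2% with indisulam (log2 fold change 0.18 ± 0.0610, edgeR adjusted p = 0.0299) and fell by 18.0% with SPHINX31 (log2 fold change -0.29 ± 0.0613, edgeR adjusted p = 0.0114). It was the only one of the 9 genes called in opposite directions by the single drugs. Both calls rested on few libraries: without untreated replicate 2 or indisulam replicate 2 the log2 fold change with indisulam was 0.12 or 0.13 (edgeR adjusted p = 0.266 and 0.169), and without untreated replicate 1 or SPHINX31 replicate 2 that with SPHINX31 was -0.22 or -0.25 (edgeR adjusted p = 0.156 and 0.0575). MIEN1, on the opposite strand, overlaps 3.58% of the ERBB2 exons, stood at a mean of 46.9 CPM and had a log2 fold change of 0.37 with indisulam and -0.00 with SPHINX31. The strand setting of the counting was not given in the sources used here, and the part of MIEN1 reads in the ERBB2 counts was not tested.

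ERBB3, which binds neuregulins and signals mostly through its partners because its own kinase is weak, lies at chr12:56076799-56103505 on the plus strand. Its level was 185 and 167 CPM in untreated cells, 126 and 126 CPM with indisulam, 209 and 181 CPM with SPHINX31, and 119 and 120 CPM with the combination. All 4 libraries with indisulam were lower than all 4 without it, and the libraries with the drug were close to each other. ERBB3 fell by 28.5% with indisulam (log2 fold change -0.48 ± 0.0676, edgeR adjusted p = 7.45e-05) and fell by 32.2% with the combination (log2 fold change -0.56 ± 0.0677, edgeR adjusted p = 1.47e-05). With SPHINX31 the untreated and treated libraries overlapped, at a log2 fold change of 0.15 (edgeR adjusted p = 0.205). Without SPHINX31 replicate 2 that value was 0.24 (edgeR adjusted p = 0.0384).

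MET lies at chr7:116672196-116798377 on the plus strand, with 21 exons. Its level was 515 and 535 CPM in untreated cells, 376 and 368 CPM with indisulam, 522 and 561 CPM with SPHINX31, and 356 and 378 CPM with the combination. The libraries fell into 4 low ones with indisulam and 4 high ones without it, and SPHINX31 libraries overlapped untreated ones. MET fell by 29.1% with indisulam (log2 fold change -0.50 ± 0.0519, edgeR adjusted p = 5.82e-06) and fell by 30.04% with the combination (log2 fold change -0.52 ± 0.0519, edgeR adjusted p = 2.82e-06). At 18751 to 32792 reads per library it was the most deeply counted of the 9 genes. With SPHINX31 the log2 fold change was 0.05, with a 95% interval from -0.07 to 0.16.

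AXL, the receptor for GAS6 and a member of the TAM family with TYRO3, lies at chr19:41219223-41261766 on the plus strand. Its level was 43.9 and 42.9 CPM in untreated cells, 25.5 and 24.4 CPM with indisulam, 39.6 and 39.6 CPM with SPHINX31, and 23.98 and 23.3 CPM with the combination. The 4 libraries with indisulam were again the lowest, and the SPHINX31 libraries lay between these and the untreated ones. AXL had the largest change of the 9 genes, since it fell by 42.5% with indisulam (log2 fold change -0.80 ± 0.0573, edgeR adjusted p = 2.1e-07) and fell by 45.5% with the combination (log2 fold change -0.87 ± 0.0573, edgeR adjusted p = 5.42e-08). Of all genes tested, 85.8% had a smaller absolute log2 fold change with indisulam. The log2 fold change with SPHINX31 was -0.13 (edgeR adjusted p = 0.167), although the 2 groups did not overlap.

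The 250 bases upstream of MET and of AXL are shown because these genes had the largest falls among the 9 for which a promoter was found. RefSeq promoter entries on GRCh38.p14 were found for 7 of the 9 genes, the other 2 being ERBB3 and FGFR1. AXL had a second entry, at chr19:41226505-41226754, and the one at its annotated gene start is printed. Each sequence reads 5′ to 3′ on the plus strand, and capitals mark GC boxes (GGGCGG on either strand).
MET, chr7:116671946-116672195: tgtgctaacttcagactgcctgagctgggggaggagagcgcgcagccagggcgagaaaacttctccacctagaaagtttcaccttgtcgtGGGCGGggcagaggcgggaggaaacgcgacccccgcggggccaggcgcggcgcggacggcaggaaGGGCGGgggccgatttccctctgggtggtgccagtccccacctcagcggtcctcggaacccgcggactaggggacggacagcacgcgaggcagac
AXL, chr19:41218973-41219222: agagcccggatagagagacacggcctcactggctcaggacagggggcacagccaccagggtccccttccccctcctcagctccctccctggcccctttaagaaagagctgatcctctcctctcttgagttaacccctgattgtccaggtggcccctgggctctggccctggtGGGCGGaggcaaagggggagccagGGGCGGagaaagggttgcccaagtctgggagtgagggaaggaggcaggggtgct

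Both windows held 2 GC boxes, the binding motif of SP1, and 42.6% of 35116 RefSeq windows of the same length held at least 1. Neither held a TATA box (TATAAA, in 10.7% of windows), an AP-1 motif (TGANTCA, in 6.57%) or an ETS motif (CCGGAAG, in 8.52%), each searched on both strands. The G and C content was 68.4% for MET and 64.4% for AXL. The second AXL window held 0 GC boxes, with 54.4% G and C. The windows upstream of the first start of EGFR, of IGF1R and of NRAS also held 2 GC boxes each. The HRAS window, chr11:535577-535826, lay inside the annotated gene and held 3. The ERBB2 window, chr17:39687844-39688093, spanned the annotated gene start and held 0, as did the second EGFR window.

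IGF1R, the receptor for insulin-like growth factors, lies at chr15:98648539-98964530 on the plus strand. Its level was 128 and 139 CPM in untreated cells, 158 and 149 CPM with indisulam, 141 and 136 CPM with SPHINX31, and 171 and 171 CPM with the combination. The combination libraries were the highest, followed without overlap by indisulam, while SPHINX31 overlapped untreated cells. IGF1R rose by 15.1% with indisulam (log2 fold change 0.20 ± 0.0547, edgeR adjusted p = 0.00855) and by 27.8% with the combination (log2 fold change 0.35 ± 0.0546, edgeR adjusted p = 1.26e-04). Without untreated replicate 1 or indisulam replicate 1 the log2 fold change with indisulam was 0.14 or 0.16 (edgeR adjusted p = 0.133 and 0.0857), whereas the call with the combination was kept under all 18 other settings.

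FGFR1, a receptor for fibroblast growth factors, had the narrowest range of the 7 receptors. Its level was 139 and 136 CPM in untreated cells, 126 and 129 CPM with indisulam, 121 and 124 CPM with SPHINX31, and 126 and 121 CPM with the combination. The 2 untreated libraries were the highest, and the 3 treated groups lay within 121 to 129 CPM. FGFR1 fell by 11.1% with SPHINX31 (log2 fold change -0.17 ± 0.0482, edgeR adjusted p = 0.0453) and fell by 10.01% with the combination (log2 fold change -0.15 ± 0.0481, edgeR adjusted p = 0.0178). The first call was lost under 11 of 18 other settings, among them scaling by total counts (log2 fold change -0.14, edgeR adjusted p = 0.0889), a replicate block (edgeR adjusted p = 0.0665) and leaving out either untreated library (edgeR adjusted p = 0.268 and 0.175) or either SPHINX31 library (edgeR adjusted p = 0.156 and 0.0592). It was also lost without indisulam replicate 1, indisulam replicate 2 or combination replicate 2 (edgeR adjusted p = 0.0572, 0.0573 and 0.0501). The second was lost with total counts (log2 fold change -0.10, edgeR adjusted p = 0.0936) and without untreated replicate 1, untreated replicate 2 or combination replicate 2 (edgeR adjusted p = 0.122, 0.0626 and 0.109).

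NRAS and HRAS encode GTPases of nearly the same fold that differ mostly in their last residues, where lipids are attached for membrane anchoring. The final 75 coding bases before the stop codon are shown to make that difference visible and because near-identical copies could share reads. Both genes lie on the minus strand, the bases fall in exon 5 of each canonical transcript (GENCODE release 44, GRCh38), and capitals mark bases that differ between the genes.
NRAS, chr1:114708538-114708612: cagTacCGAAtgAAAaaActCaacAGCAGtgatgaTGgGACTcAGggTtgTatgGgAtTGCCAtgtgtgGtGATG
HRAS, chr11:532639-532713: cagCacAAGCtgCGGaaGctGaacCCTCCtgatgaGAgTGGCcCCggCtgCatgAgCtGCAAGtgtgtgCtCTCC

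Of these 75 bases 38, or 50.7%, were the same in both genes, against 76.4% of the coding bases before them. The longest identical run between the 2 canonical transcripts was 14 bases and the longest between any 2 of the 9 was 25, far shorter than the 150 bp reads. NRAS had 96.6 and 98.7 CPM in untreated cells, 103 and 103 CPM with indisulam, 95.7 and 103 CPM with SPHINX31, and 101 and 108 CPM with the combination. It was called in none of the 3 comparisons with untreated cells, and its largest log2 fold change was 0.10 with the combination (95% interval -0.02 to 0.22, edgeR adjusted p = 0.149). With total counts in place of edgeR's TMM scaling that value was 0.15 (edgeR adjusted p = 0.0275).

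HRAS lies at chr11:532242-537321 and was counted with 1380 to 1819 reads per library. It had 26.5 and 24.2 CPM in untreated cells, 27.8 and 29.3 CPM with indisulam, 25.5 and 25.8 CPM with SPHINX31, and 31.8 and 29.9 CPM with the combination. The 4 libraries with indisulam were the highest, and the SPHINX31 libraries lay inside the untreated range. HRAS rose by 21.9% with the combination (log2 fold change 0.29 ± 0.0664, edgeR adjusted p = 0.00288), a call lost without untreated replicate 2 (log2 fold change 0.22, edgeR adjusted p = 0.0523). With indisulam the rise was 12.9% (log2 fold change 0.17 ± 0.0668, edgeR adjusted p = 0.0489), and this call was lost under 7 of 18 other settings. Among these were DESeq2 (adjusted p = 0.067), a replicate block (edgeR adjusted p = 0.0602) and leaving out untreated replicate 2, indisulam replicate 1, indisulam replicate 2 or combination replicate 2 (edgeR adjusted p = 0.344, 0.0601, 0.192 and 0.052).

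In these bulk libraries, fewer cells with a transcript and less RNA per cell cannot be told apart for any of the 9 genes.

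The effect of indisulam was measured a second time in cells that also had SPHINX31, by comparing the combination with SPHINX31 alone. This shares no library with the comparison of indisulam with untreated cells. The spread in both tests was however estimated over all 8 libraries, so their p-values are not independent. In the combination against SPHINX31, 7 of the 9 genes were called, beside 49.9% of all genes, 3 of them higher (23.4% of all genes) and 4 lower (26.5%). AXL had a log2 fold change of -0.80 without and -0.74 with SPHINX31 present, MET of -0.50 and -0.56, and ERBB3 of -0.48 and -0.71. Among the rising genes, IGF1R had 0.20 and 0.30, HRAS 0.17 and 0.27, and ERBB2 0.18 and 0.20. These 6 genes were called in both comparisons, and 8 of the 9 had the same sign in both, the exception being FGFR1 with -0.11 and 0.02. The matching shares of all genes are not given here, so such agreement is not read as particular to the 9 genes. EGFR was called with SPHINX31 present only, at -0.20 ± 0.0646 (edgeR adjusted p = 0.0197) against -0.07. That EGFR call was lost without SPHINX31 replicate 1 (-0.18, edgeR adjusted p = 0.0818), SPHINX31 replicate 2 (-0.20, edgeR adjusted p = 0.0643) or combination replicate 1 (-0.16, edgeR adjusted p = 0.146). The ERBB2 call was lost without SPHINX31 replicate 2 (0.18, edgeR adjusted p = 0.066) or combination replicate 1 (0.16, edgeR adjusted p = 0.106).

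**Figure D3:**
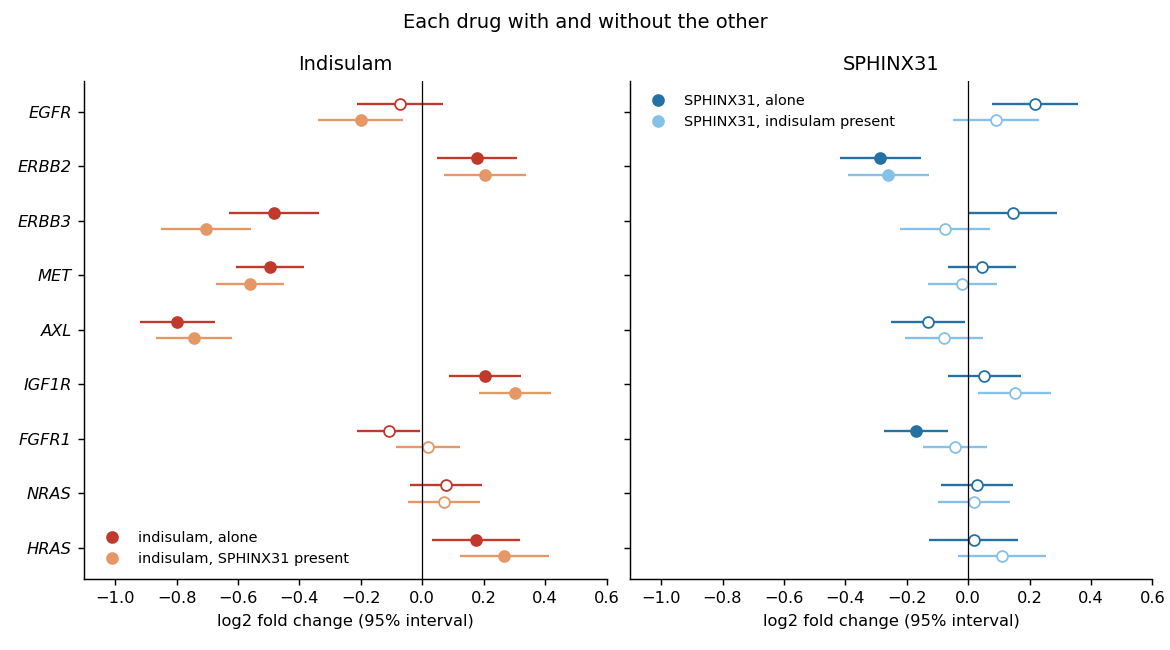
Log2 fold change of each gene with its 95% interval, for indisulam (left) and SPHINX31 (right), each alone against untreated cells and in the presence of the other drug, with filled points for calls at an adjusted p under 0.05. AXL, MET and ERBB3 lie left of zero for indisulam in both backgrounds, and ERBB2 is the one gene filled in both backgrounds for SPHINX31.

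The effect of SPHINX31 was likewise measured in cells that also had indisulam. The combination against indisulam called 1 of the 9 genes, ERBB2, at a lower level, beside 7.5% of all genes in either direction and 4.32% lower. This comparison shares no library with that of SPHINX31 and untreated cells, but again the spread was estimated over all 8 libraries. ERBB2 fell by 16.5% (log2 fold change -0.26 ± 0.0611, edgeR adjusted p = 0.0207), next to -0.29 without indisulam. The call was lost without indisulam replicate 2 (-0.21, edgeR adjusted p = 0.106), combination replicate 1 (-0.31, edgeR adjusted p = 0.0524) or combination replicate 2 (-0.21, edgeR adjusted p = 0.181). The sign was shared by 7 of the 9 genes, the exceptions being ERBB3 with 0.15 and -0.08 and MET with 0.05 and -0.02. Here too the matching share of all genes is not given. EGFR had 0.22 without and 0.09 with indisulam, and FGFR1 had -0.17 and -0.04.

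The departure of the combination from the sum of the single drugs on the log2 scale was tested as an interaction, and none of the 9 genes passed. Across all genes edgeR called 0 interactions and DESeq2 called 32. In edgeR 1584 genes had an unadjusted p under 0.05, where 933 would be expected if no gene departed from the sum. In simulated data with 200 changed genes this test recovered 5 of 66 departures of 0.25 and 35 of 67 of 0.5. The lack of calls therefore does not show that the effects of the drugs add up. ERBB3 was the 1 gene of the 9 with an unadjusted p under 0.05, at -0.22 ± 0.0954 (unadjusted p = 0.0364, edgeR adjusted p = 0.568). The 95% interval was -0.17 to 0.16 for NRAS and -0.22 to 0.09 for MET, and for EGFR it ran from -0.32 to 0.07.

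Genes that act around the 9 were taken from 6 lists of ligands, other receptors, adaptors, RAS regulators, downstream kinases and negative regulators, 138 genes in all, of which 122 could be tested. With indisulam 20 of these were higher (16.4%, against 20.1% of all genes) and 35 lower (28.7%, against 23.5%). With SPHINX31 13 were higher (10.7%, against 4.94% of all genes) and 3 lower (2.46%, against 3.67%), and with the combination 23 were higher (18.9%, against 23.8%) and 35 lower (28.7%, against 26.3%). The 20 became 10 without untreated replicate 2, the 35 with indisulam became 23 without untreated replicate 2 or indisulam replicate 1, and the 23 with the combination became 15 without untreated replicate 2. The 13 became 4 without untreated replicate 1 (3.28%, against 1.71% of all genes) and 6 without untreated replicate 2 or SPHINX31 replicate 1. The shares of all genes serve as background for each list, and the lists were chosen with earlier results of these data known. They fell as well when 1 library of a compared group was left out. The exception was the share lower with SPHINX31 without SPHINX31 replicate 2. Apart from that exception, a smaller count without 1 such library, here or in the separate lists below, came with a smaller share of all genes. Some lists fell by more than that share, and whether a fall was particular to a list was not tested. Among the ligands, 8 of 22 were too low to test, IGF1 and IGF2 included. Of the 14 tested, 1 was higher and 4 were lower with indisulam (20.1% and 23.5% of all genes), whereas 5 were higher and 0 lower with SPHINX31 (4.94% and 3.67%). The 1 became 2 without either combination library, the 4 became 2 without untreated replicate 2 or indisulam replicate 1, and the 5 became 2 without untreated replicate 1 and 3 without either SPHINX31 library.

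Among called ligands with a mean log2 CPM of at least 3, amphiregulin (AREG) and epiregulin (EREG) changed most with either single drug. Both bind EGFR. AREG had 73.3 and 78.9 CPM in untreated cells, 51.2 and 52.6 CPM with indisulam, 163 and 158 CPM with SPHINX31, and 72.5 and 89.9 CPM with the combination. EREG had 95.9 and 106 CPM in untreated cells, 57.2 and 56.9 CPM with indisulam, 196 and 208 CPM with SPHINX31, and 76.4 and 93.1 CPM with the combination. For both genes the SPHINX31 libraries were the highest and the indisulam libraries the lowest, with no overlap with untreated cells. AREG rose 2.11-fold with SPHINX31 (edgeR adjusted p = 7.13e-06) and EREG 2.00-fold (edgeR adjusted p = 8.79e-06), while with indisulam their log2 fold changes were -0.55 and -0.82 (edgeR adjusted p = 1.13e-04 and 3.32e-06). These 4 calls were kept under all 18 other settings. EREG with the combination was at -0.25 (edgeR adjusted p = 0.0172), a call lost without untreated replicate 2 (-0.18, edgeR adjusted p = 0.158) or combination replicate 1 (-0.11, edgeR adjusted p = 0.26). AREG was at 0.09 (edgeR adjusted p = 0.355) and was called at 0.25 without combination replicate 1 (edgeR adjusted p = 0.011). With the combination the ligand with the largest called change was HGF, the ligand of MET. HGF had 13.9 and 12.3 CPM in untreated cells, 12.7 and 13.0 CPM with indisulam, 11.5 and 11.8 CPM with SPHINX31, and 9.34 and 8.96 CPM with the combination. The combination libraries were the lowest, with no overlap with any other group, at a log2 fold change of -0.51 ± 0.0822 from untreated cells (edgeR adjusted p = 1.7e-04), a call kept under all 18 other settings. The log2 fold changes of HGF were -0.02 with indisulam (edgeR adjusted p = 0.827) and -0.17 with SPHINX31 (edgeR adjusted p = 0.23). The interaction of HGF was not called, at -0.32 ± 0.116 (edgeR adjusted p = 0.496). NRG4, a ligand of ERBB4, rose on the log2 scale by 0.46 with indisulam (edgeR adjusted p = 8.84e-04) and by 0.42 with the combination (edgeR adjusted p = 0.00127).

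Of 26 other receptor tyrosine kinases tested, 13 were lower and 1 was higher with indisulam (23.5% and 20.1% of all genes), with a median log2 fold change of -0.28, and 15 were lower and 3 higher with the combination (26.3% and 23.8%). The 1 became 2 without either SPHINX31 library. TYRO3 and MST1R are given because they had the largest called falls with indisulam among those with a mean log2 CPM of at least 3. TYRO3, of the AXL family, had 17.8 and 16.5 CPM in untreated cells and 11.7 and 10.8 CPM with indisulam, a log2 fold change of -0.61 (edgeR adjusted p = 5.77e-05). MST1R, the closest relative of MET, had 20.6 and 19.3 CPM in untreated cells and 14.4 and 14.1 CPM with indisulam, a log2 fold change of -0.48 (edgeR adjusted p = 6.58e-04). The calls of TYRO3 and MST1R were kept under all 18 other settings, as they were with the combination (-0.77 and -0.78). With SPHINX31 3 receptors were lower (3.67% of all genes were), among them NTRK3 at -0.42, and 1 was higher (4.94% of all genes were), the WNT5A receptor ROR1 at 0.66 (edgeR adjusted p = 8.15e-05).

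**Figure D4:**
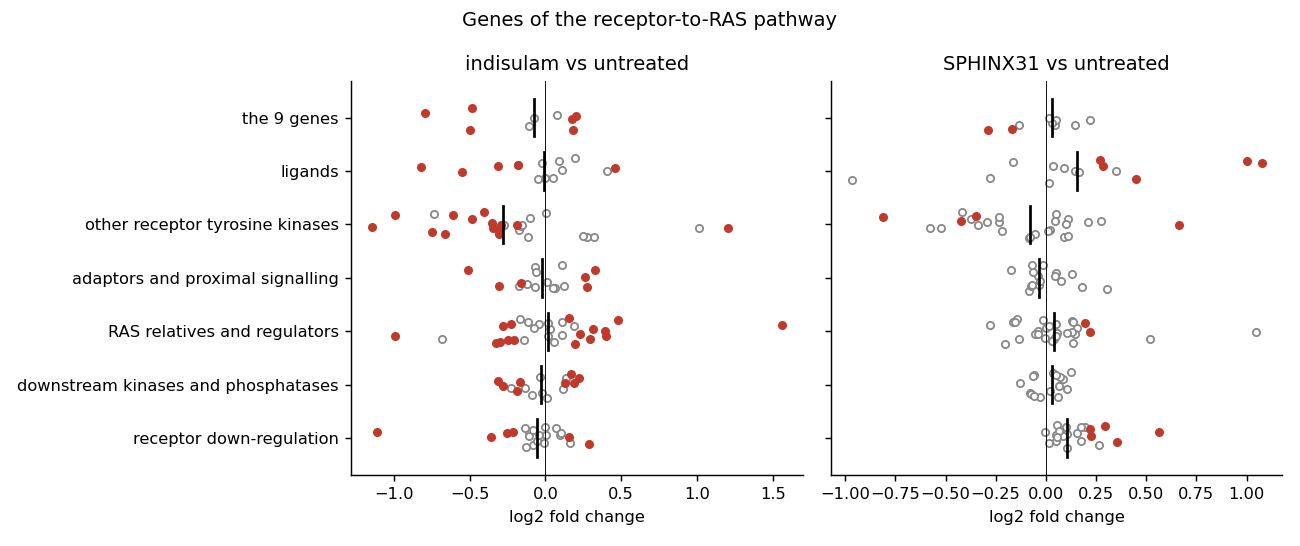
Log2 fold change of the 9 genes and of each tested gene of the 6 lists, for indisulam (left) and SPHINX31 (right) against untreated cells, with filled points for calls and a black bar at each median. The other receptor tyrosine kinases lie mostly left of zero with indisulam, at a median of -0.28. AREG and EREG are among the filled ligands right of zero with SPHINX31.

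Between receptor and RAS, both SOS exchange factors fell with indisulam, SOS1 by 0.31 and SOS2 by 0.51 on the log2 scale, whereas the docking protein GAB2 rose by 0.33. The call of GAB2 was lost without untreated replicate 2 (0.30, edgeR adjusted p = 0.0723) or indisulam replicate 1 (0.28, edgeR adjusted p = 0.0688). In all, 3 of 16 adaptors were higher and 3 lower with indisulam (20.1% and 23.5% of all genes), and the 3 higher became 1 without either of these libraries. With SPHINX31 0 of 16 were called (8.61% of all genes), or 1, GAB2, without either indisulam library or SPHINX31 replicate 2 and under 5 other settings. Of 29 RAS relatives and regulators, 9 were higher and 7 lower with indisulam (20.1% and 23.5% of all genes), and the 9 became 5 without untreated replicate 1 and the 7 became 2 without untreated replicate 2. Among them RALB, a RAS-like GTPase downstream of RAS, and RCE1, the protease that trims prenylated RAS, rose by 0.39 and 0.40 on the log2 scale, and NF1, which switches RAS off, had a log2 fold change of -0.30 (edgeR adjusted p = 0.00633) that was not called without untreated replicate 2 (-0.19) or indisulam replicate 2 (-0.20). Downstream of RAS, 4 of 16 kinases and phosphatases were higher and 4 lower with indisulam (20.1% and 23.5% of all genes), and 0 were called with SPHINX31 (8.61% of all genes). The 4 higher became 0 without untreated replicate 2 and 1 without indisulam replicate 2, and the 4 lower became 2 without untreated replicate 1, untreated replicate 2 or indisulam replicate 1. PDPK1, the kinase that activates AKT, fell by 0.31 on the log2 scale with indisulam.

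Of 21 genes that dampen the receptors, 2 were higher and 4 lower with indisulam (20.1% and 23.5% of all genes), and 5 were higher and 0 lower with SPHINX31 (4.94% and 3.67%). The 2 became 1 without either untreated library or indisulam replicate 2. The 5 became 1 without either untreated library, 2 without SPHINX31 replicate 1, 3 without SPHINX31 replicate 2, and 8 with total counts or GC content offsets. ERRFI1, an inhibitor of EGFR and its relatives that is itself induced by their signalling, had 271 and 270 CPM in untreated cells, 256 and 254 CPM with indisulam, 405 and 395 CPM with SPHINX31, and 306 and 339 CPM with the combination. The SPHINX31 libraries were the highest and the indisulam libraries the lowest, and the rise with SPHINX31 was 0.56 on the log2 scale (edgeR adjusted p = 4.38e-05). ERRFI1 was not called with indisulam, at a log2 fold change of -0.08 (edgeR adjusted p = 0.22). SPRY2, a feedback inhibitor of receptor signalling, rose by 0.35 with SPHINX31 (edgeR adjusted p = 0.0102), a call lost without untreated replicate 1 (0.36), untreated replicate 2 (0.34) or SPHINX31 replicate 1 (0.29), while SPRY4 fell by 0.36 with indisulam. Over the 21 genes the median log2 fold change was 0.11 with SPHINX31 and -0.05 with indisulam.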

How the data were processed

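The authors made stranded libraries from polyadenylated RNA and sequenced them as paired-end reads of 150 bp. The submitters' processing notes name HISAT2 2.2.1, HTSeq and GRCh38. The deposited values are raw counts of reads per gene, without normalization, and the annotation and strand setting of the counting were not given in the sources used here. Rows for reads left unassigned, 14% to 17% of recorded reads, stayed out of library sizes and tests. Columns not used numbered 0.

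Counts were tested with edgeR 4.0.16 (quasi-likelihood, TMM, filterByExpr, R 4.3.3) over all 8 libraries, with 4 residual degrees of freedom, Benjamini-Hochberg adjustment over 18661 genes and a threshold of 0.05. CPM are counts scaled by TMM library sizes. Positions, exons and lengths came from GENCODE release 44 on GRCh38, which matched 99.6% of gene IDs, and promoter windows from RefSeq. The procedure was checked on simulated data in which 200 genes were changed per comparison, far fewer than the 8148 called with indisulam. With so few changed genes the Benjamini-Hochberg cutoff is stricter, so the recoveries do not give the sensitivity of the real indisulam comparison. Log2 changes of 0.25, 0.5 and 1 were recovered for 17 of 66, 54 of 67 and 67 of 67 genes with indisulam. For the interaction, 5 of 66, 35 of 67 and 61 of 67 were recovered. A gene that was not called may thus still have changed by a small amount. Each SE of a log2 value covers counting error and the spread between technical replicates, which differed by more than counting error in every group.

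The 9 genes and the lists were chosen with earlier results of these data known. All 9 are named in every comparison. From each list, up to 2 genes with the largest rises and up to 2 with the largest falls were named per comparison among genes past the threshold whose mean log2 CPM reached 3, and not all are printed. IGF1 and IGF2 fall outside that rule. For likeness, the nearest gene was named by the distance over the 3 log2 fold changes against untreated cells. The 18 other settings were RLE size factors, total counts, 2 count filters (1 count in all, 10 in every library), a replicate block, GC content offsets over 50 bins, both together, the compared groups alone, DESeq2 1.42.0, leaving out each library, and a block in which the 2 indisulam numbers were swapped (exchanged block). The last, and the level over all exons, were chosen after seeing the data.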

Additional observations from a re-analysis of the deposited data

Results flagged for a closer look

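Some classes of reads that were recorded but not assigned to a gene were more frequent in both libraries of a treated group than in both untreated libraries. Reads outside annotated features made up 4.99% of recorded reads with indisulam (4.49% and 5.48%) and 5.37% with the combination (4.87% and 5.88%), above the 3.94% and 4.34% of untreated cells. Reads on more than 1 gene made up 5.95% with indisulam (5.87% and 6.03%), above 4.88% and 5.22% in untreated cells, whereas the combination libraries had 4.99% and 4.96% and the SPHINX31 libraries 5.94% and 4.82%. Reads without a unique alignment made up 5.67% with indisulam (5.53% and 5.81%) and 5.66% with the combination (5.66% and 5.67%), above 5.41% and 5.48% in untreated cells. These reads enter no value of the 9 genes, and their part in the changes of the 9 genes was not tested.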

How the results depend on the processing

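Of the 22 calls on the 9 genes in the 5 comparisons, 12 were kept under all 18 other settings, 10 were lost under at least 1 and 0 changed direction. Those of AXL, MET and ERBB3 for indisulam alone, for the combination against untreated cells and for the combination against SPHINX31 were kept. Genes called with SPHINX31 numbered 1606, but 2696 with GC content offsets and 2630 with the exchanged block, and 482 to 1810 when 1 library was left out (482 without untreated replicate 1, 539 without untreated replicate 2, 697 without SPHINX31 replicate 1). For the combination against indisulam 1399 genes became 2340 with GC content offsets and 2252 with the exchanged block, and 440 to 1612 without 1 library (696 without indisulam replicate 1, 609 and 440 without combination replicate 1 and 2). Interactions numbered 94 with the filter of 1 count, 15 with GC content offsets, 12 with the exchanged block, 32 with DESeq2 and 0 to 1 without 1 library. Of the 9 genes, 0 to 2 were called with SPHINX31 without 1 library and 0 to 1 for the combination against indisulam. The cause was not tested. Same-numbered libraries deviated together in some group pairs (correlation 0.450 for untreated and SPHINX31) and oppositely in others (-0.567 for untreated and indisulam), so the numbers were not taken to pair the libraries. With the replicate block 7851 genes were called with indisulam, 1330 with SPHINX31, 9077 with the combination, 1169 for the combination against indisulam and 9074 against SPHINX31, and 5, 1, 6, 1 and 7 of the 9 genes. With the indisulam numbers exchanged, a choice made after seeing the data, 8952, 2630 and 10014 genes were called against untreated cells. Scaling by total counts made 1341 of 1856 calls with SPHINX31 higher (921 of 1606 with TMM) and 942 of 1440 for the combination against indisulam (592 of 1399). No group had more than 2 libraries, all technical replicates, which limits every call near the threshold.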

Other observations

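For each of the 9 genes, the tested gene with the most similar 3 log2 fold changes against untreated cells was looked up among 9936 genes. The nearest to MET was SOS2, an exchange factor of RAS, with log2 fold changes of -0.51 with indisulam, 0.05 with SPHINX31 and -0.52 with the combination, at a distance of 0.0161. The nearest to AXL was MEIS3, with -0.78, -0.09 and -0.89, at a distance of 0.0490, the largest of the 9 distances. ERBB3 was nearest to PCBD2 (distance 0.0156), EGFR to SDR16C5 (0.0100) and ERBB2 to TICRR (0.0289). IGF1R was nearest to TXNL1 (0.0228), FGFR1 to LLGL2 (0.0268), NRAS to ST7 (0.00676) and HRAS to AMZ2 (0.0128). Among the 9 genes themselves, IGF1R and HRAS were the closest pair (distance 0.0822), followed by ERBB3 and MET (0.110). These are descriptions over 3 comparisons that share the untreated libraries.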
